A study of Arabidopsis thaliana with 4 samples.

Results

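Transcript levels of nuclear genes in a duf761-1 mutant of Arabidopsis thaliana were set against those in its wild type, Nossen, a natural accession. The mutant array (duf761-1) and the Nossen array (NO) are 2 of the 4 arrays of the study. The other 2 are OE6, a transgenic line that overexpresses DUF761-1 in Columbia-0, and Col-0, the Columbia-0 wild type. The labels give the mutant as line RATM11-0975-1_H in the Nossen background and give neither the promoter behind OE6 nor a second line of either kind. All 4 genotypes were whole 2-week-old seedlings grown on 1/2 MS medium with 2% sucrose at 22 °C, in cycles of 16 h light and 8 h dark at 100 µmol per m2 per s. Each genotype has 1 array, so no value below has a replicate check, and differences are given by size with no test. In whole seedlings, fewer cells of a type and less RNA per cell cannot be told apart.

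The array reads each transcript with a set of short probes, a probe set, and its values are signal intensities. Of 22810 probe sets, 64 are array controls and 112 are annotated to genes of the plastid or mitochondrial genome. A further 34 unnamed probe sets lie between organelle-encoded ones in number and were set aside as possibly of the same kind, which was not checked, and 2 of them were at least 2-fold higher and 0 lower on duf761-1. That left 22600 nuclear probe sets, of which 13421 carry 1 gene name in the tables used here, 483 carry several and 8696 carry none. Signals under 102 were raised to that floor, the 40th percentile of all non-control signals. Where the signal of 1 array was raised to the floor, the ratio bounds the difference from below and is given as "at least" or, for lower genes, "or lower". On duf761-1 or NO, 13750 nuclear probe sets were above the floor, and the other 8850 had no ratio.

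DUF761-1 is named for a protein domain of unknown function. Several of the nuclear genes below act in cell structure and growth. NET (Networked) proteins are plant proteins that bind actin filaments and link them to membranes. XTH enzymes cut and rejoin xyloglucan, a sugar polymer that tethers cellulose in the wall, and GH3 enzymes of the auxin branch join the growth hormone auxin to amino acids, which lowers its free level.

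The arrays were alike in range. The share of nuclear probe sets above the floor was 58.4% on duf761-1, 58.9% on NO, 61.2% on OE6 and 61.6% on Col-0. The ratio of 3′ to 5′ control probe sets, which rises as RNA is degraded, was 0.754 for GAPDH on duf761-1 and 0.846 on NO, and 0.267 for actin on duf761-1 and 0.279 on NO. The actin ratio was 2.06 on OE6 and 1.61 on Col-0, so the Nossen and Columbia arrays stood apart in it, and its part in the comparisons with Columbia was not tested. For ubiquitin the gap was smaller, with 1.10 on duf761-1, 1.08 on NO, 1.27 on OE6 and 1.16 on Col-0. Leaf and root markers were present on both Nossen arrays. RCA, the Rubisco activase, had a signal of 24530 on duf761-1 and 25285 on NO, and PYK10, a root beta-glucosidase, had 15882 on duf761-1 and 16371 on NO. The other measured root markers differed in opposite directions, EXPA18 with 256 on duf761-1 and 426 on NO, and EXPA7 with 145 on duf761-1 and 79.1 on NO, and their part in the results was not tested. No marker on the flower and seed lists has a named probe set here. The circadian clock gene GI, chosen after its values were seen, read 34.2 on duf761-1 and 25.4 on NO, against 1158 on OE6 and 1684 on Col-0. Background, sampling and processing of the Nossen and Columbia plants cannot be told apart with these arrays. Whether the probes match Nossen sequence as well as Columbia sequence was not checked.

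Of the 13750 nuclear probe sets above the floor, 52 were at least 2-fold higher on duf761-1 than on NO (0.378%) and 33 were at least 2-fold lower (0.24%). These 85 probe sets are the members described below. With the arrays scaled on the hybridisation spike-ins instead, 61 were higher and 21 lower, so the share of higher ones moved to 74.4%, against 61.2%. Among the 52 higher ones, 30 have 1 gene name, 1 has several and 21 are unnamed, and 8 ratios are bounds. Among the 33 lower ones, 17 have 1 gene name, 1 has several and 15 are unnamed, and 7 ratios are bounds. Most of these differences were small. The median was 2.19-fold in both directions, 4 of the higher and 2 of the lower probe sets were past 3-fold, and 2 of the higher ones past 4-fold. As a yardstick of probe-set noise, the log2 ratios of duf761-1 over NO were compared between 2 probe sets for the same gene. Their SD was 0.28 per probe set over 60 genes, all with signals that cleared the floor on every array. In 2 of those genes the ratios differed by 1 or more. Differences between whole arrays or between plants do not show in this yardstick. Where most members lie, at a higher Nossen signal between 204 and 408, the SD over all ratios was 0.36.

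The members lay at the low end of the signal range that the floor allows. With a floor of 102, a probe set under 204 on both Nossen arrays cannot be 2-fold apart. Such probe sets count among the 13750 but are left out of the ranges below. Of 3367 probe sets whose higher signal of the Nossen pair was between 204 and 408, 33 were higher and 22 lower on duf761-1, which is 1.63%. Between 408 and 816 the share was 0.542% of 3134, between 816 and 1632 it was 0.325% of 2153, between 1632 and 3264 it was 0.337% of 1188, and above 3264 it was 0.192% of 1041, that is 2 probe sets. Around the threshold, AT1G70550 (log2 ratio 1.00) and AT3G05900 (1.00) were just inside on the higher side, and AT4G17360 (at least 0.99) and AT1G24575 (0.98) just outside. On the lower side, XTH18 (-1.02) and AT1G25320 (-1.02 or lower) were just inside. Just outside were AT1G31220, with 167 on duf761-1 and 332 on NO, and AT4G38260, with 116 on duf761-1 and 232 on NO.

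**Figure D1:**
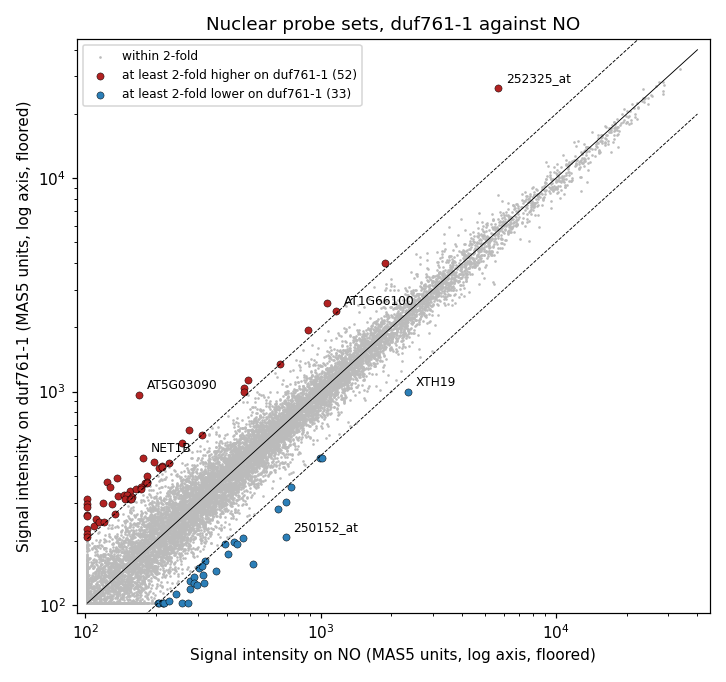
Signal intensity of each of the nuclear probe sets on duf761-1 (vertical) against NO (horizontal), log axes, values under 102 drawn at 102. Dashed lines mark 2-fold; the 52 higher and 33 lower probe sets are coloured and lie mostly at low signal, with 252325_at, AT1G66100 and XTH19 among the brighter ones.

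In the 2 probe sets with the highest ratios, duf761-1 alone lay outside the range of the other arrays. AT5G03090, a protein-coding locus of chromosome 5 without a symbol, had a signal of 959 on duf761-1 and 170 on NO, against 31.1 on OE6 and 8.03 on Col-0, both under the floor. It was 5.65-fold higher on duf761-1 than on NO. The unnamed probe set 252325_at read 26503 on duf761-1 and 5698 on NO, with 4805 on OE6 and 5916 on Col-0, a 4.65-fold difference between the Nossen arrays. The other 3 arrays were close to each other for 252325_at, so duf761-1 was the array that stood apart. The next unnamed one, 249271_at, showed the other arrangement, with 314 on duf761-1, 62.3 on NO, 204 on OE6 and 334 on Col-0, so that NO was low and duf761-1 was within the Columbia range (at least 3.07-fold higher on duf761-1).

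These arrangements split the members. The signal of duf761-1 can lie outside the range of the other 3 arrays, that of NO can, or both can. Of the 52 higher probe sets, NO was below all 3 other arrays in 39 and duf761-1 was above all 3 others in 33. Both held for 20, only NO stood outside for 19, and only duf761-1 for 13. Over all nuclear probe sets above the floor, NO was below the other 3 in 23.3% and duf761-1 above them in 25.1%. Since these members were chosen on the same 2 arrays, both shares had to be larger among them, and the split is given as a description. Of the 33 lower probe sets, NO was above all 3 others in 24 and duf761-1 below all 3 others in 18. Both held in 10, only NO in 14, only duf761-1 in 8 and neither in 1. The shares over all nuclear probe sets above the floor were 26.5% for NO above the others and 24.4% for duf761-1 below them. The lower members were chosen on the same 2 arrays too, so this split is also a description. Set against the mean log2 signal of the Columbia arrays, duf761-1 was the nearer Nossen array for 29 of the 52 higher and 20 of the 33 lower probe sets. The same share over all nuclear probe sets above the floor was 50.3%. The duf761-1 signal was within 2-fold of the Columbia mean for 38 of the 52 and 26 of the 33. The NO signal was within 2-fold of it for 28 of the 52 and 20 of the 33. The matching shares over all nuclear probe sets were not computed, so no trait of the members is read from these counts.

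**Figure D2:**
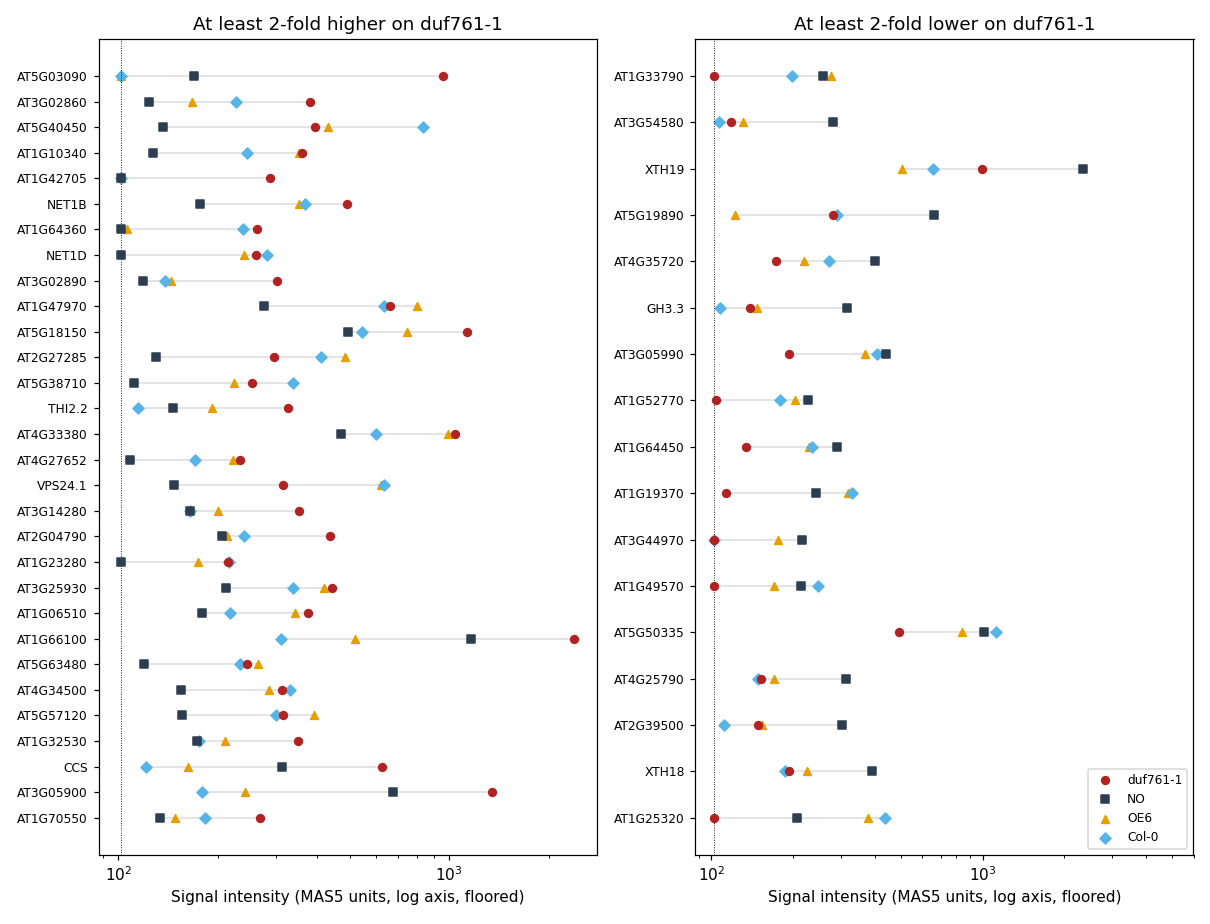
Signal intensity (log axis, values under 102 drawn at 102, dotted line) of the 47 probe sets with 1 gene name that were at least 2-fold apart, 1 row per gene and 1 symbol per array. Among the 30 higher genes duf761-1 (red circles) lies beside the Columbia arrays in rows such as NET1D and far right of them in rows such as AT5G03090; among the 17 lower genes NO (dark squares) is the rightmost symbol in rows such as XTH19 and GH3.3.

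Genes of the actin-binding NET family were 2 of the 5 higher members with a symbol, and for both NO was the lowest of the 4 arrays. Only 1488 of the 22600 nuclear probe sets have a symbol and most members have none. No share of the family among the members is therefore read from this. Choosing members on NO and duf761-1 also favours a low NO signal. NET1B read 490.0 on duf761-1 and 177 on NO, with 351 on OE6 and 367 on Col-0, a log2 ratio of 1.47 (2.77-fold). NET1D read 260.04 on duf761-1 and 80.2 on NO, with 240 on OE6 and 282 on Col-0, at least 2.55-fold higher on duf761-1. On the log2 scale the distance from the Columbia mean was 0.45 on duf761-1 and -1.02 on NO for NET1B. For NET1D, duf761-1 equalled that mean after rounding, and NO was at -1.35 or lower. Of the 10 NET genes with a named probe set, 5 were above the floor, these 2 were 2-fold higher and 0 lower. NET1A, which sits at the plasma membrane and plasmodesmata, had 198 on duf761-1 and 164 on NO (0.27), NET4B had 194 on duf761-1 and 167 on NO (0.22), and NET2D had 103 on duf761-1 and 125 on NO (-0.28). The median of the 5 was 0.27, against -0.01 over all nuclear probe sets above the floor. These 5 include the 2 members, and the NET list was drawn up after earlier results were known. No shift of the whole family is therefore read from that median. With a floor at the 60th percentile NET1B (0.77) was within 2-fold, and NET1D had no ratio.

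VPS24.1 encodes a subunit of the ESCRT-III complex, which buds membrane proteins into endosomes on their way to the vacuole. Its signal was 315 on duf761-1 and 147 on NO, but 621 on OE6 and 636 on Col-0. It was 2.14-fold higher on duf761-1 than on NO, and both Nossen arrays lay below both Columbia arrays. The locus AT5G40450 had the same order, with 394 on duf761-1, 136 on NO, 432 on OE6 and 835 on Col-0 (1.53). In this group with NO alone below the rest were also AT1G47970 (662 on duf761-1, 275 on NO, 798 on OE6 and 635 on Col-0) and AT2G27285 (296 on duf761-1, 130 on NO, 486 on OE6 and 409 on Col-0). AT5G38710, AT5G63480, AT4G34500 and AT5G57120, with log2 ratios between 1.02 (AT5G57120) and 1.18 (AT5G38710), and AT1G23280, at least 1.07, complete its 10 named genes. Over all 19 probe sets with NO alone low, the median log2 distance from the Columbia mean was -0.14 on duf761-1 and -1.36 on NO.

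In the 20 probe sets with duf761-1 highest and NO lowest, the median distance from the Columbia mean was 0.49 on duf761-1 and -0.61 on NO. AT1G10340 had 359 on duf761-1 and 127 on NO, and 351 on OE6 and 245 on Col-0 (1.50). AT5G18150 had 1130 on duf761-1 and 494 on NO, with 746 on OE6 and 544 on Col-0 (1.19), and AT4G33380 had 1041 on duf761-1 and 472 on NO, with 992 on OE6 and 599 on Col-0 (1.14). AT1G64360 had 263 on duf761-1 and 49.0 on NO, with 106 on OE6 and 238 on Col-0, at least 2.58-fold higher on duf761-1. The named genes of this group not described elsewhere were AT4G27652, AT2G04790, AT3G25930, AT1G06510 and AT1G32530, between 1.02 (AT1G32530) and 1.10 (AT4G27652).

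A smaller set was high on duf761-1 alone and, in part, high on both Nossen arrays. In these 13 probe sets the median distance from the Columbia mean was 2.13 on duf761-1 and 0.55 on NO. CCS, the chaperone that delivers copper to Cu/Zn superoxide dismutase, read 628 on duf761-1 and 312 on NO, against 162 on OE6 and 121 on Col-0. It was 2.01-fold higher on duf761-1 than on NO, at the threshold, and within 2-fold under quantile normalization, loess and the pseudocount. AT1G66100 read 2388 on duf761-1 and 1162 on NO, against 519 on OE6 and 309 on Col-0 (1.04), and AT3G05900 read 1353 on duf761-1 and 675 on NO, against 242 on OE6 and 179 on Col-0 (1.00). These 3 and 2 probe sets without a single gene name were at least 2-fold above the Columbia mean on both Nossen arrays, 5 of the 52. The share over all nuclear probe sets was not computed, so this gap is not read as a trait of the members. The widest gap of the 5 was in the unnamed 245757_at, chosen after its values were seen. It read 1953 on duf761-1 and 881 on NO, against 96.7 on OE6 and 84.6 on Col-0. AT1G42705, annotated as a pseudogene, was above the floor on duf761-1 alone, at 287, with 87.3 on NO, 22.8 on OE6 and 9.98 on Col-0 (at least 2.82-fold higher on duf761-1). The suffix of its probe set marks possible cross-hybridisation, so it may also read other transcripts. THI2.2, a gene for a thionin, a small antimicrobial peptide, read 326 on duf761-1 and 146 on NO, with 192 on OE6 and 115 on Col-0 (1.16). AT3G14280 read 351 on duf761-1 and 165 on NO, with 200.4 on OE6 and 165 on Col-0 (1.09).

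Members AT3G02860 and AT3G02890 lie near each other on chromosome 3, and the genes between and after them were higher on duf761-1 as well. This run of 6 genes was chosen after its values were seen. In the order of named genes above the floor it holds AT3G02860, VTC4 (AT3G02870), AT3G02880, AT3G02890, AT3G02900 and AT3G02910, and the reference gene table lists 8 loci over the same stretch. AT3G02860 read 379 on duf761-1 and 124 on NO, with 167 on OE6 and 226 on Col-0 (3.06-fold), and AT3G02890 read 301 on duf761-1 and 119 on NO, with 144 on OE6 and 138 on Col-0 (2.53-fold). VTC4 encodes the phosphatase that makes L-galactose in the synthesis of vitamin C. Its signal was 2512 on duf761-1 and 1279.5 on NO, with 706 on OE6 and 1074 on Col-0, a 1.96-fold difference, just short of the threshold. AT3G02880 read 3078 on duf761-1 and 1695 on NO (1.82-fold), AT3G02900 read 1932 on duf761-1 and 1079.9 on NO (1.79-fold), and AT3G02910 read 4259 on duf761-1 and 2639 on NO (1.61-fold). The signal on duf761-1 was the highest of the 4 arrays for 6 of the 6.

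Unlike most members, 4 of these genes are well above the low signal range. The median log2 ratio of the 6 was 0.92 (1.89-fold), while that of OE6 over Col-0 for the same genes was 0.09. Against the Columbia mean the median was 1.36 on duf761-1 and 0.56 on NO. On either side the differences were smaller for most genes. The median of the 10 nearest named genes above the floor was 0.11, with DJ1D at -0.13, AT3G02770 at -0.04 and THO7 at -0.23. Others were higher on duf761-1, with AT3G02760 at 0.76, AT3G02820 at 0.51 or higher, AT3G03020 at 0.44 and AT3G03000 at 0.34. The ends of the run were set after these values were seen. Neighbouring genes were also scanned in stretches of 7, a width chosen after the data were seen. The scan used the same arrays that drew attention to the run, so its ranking is a description and no separate check. Among all 7208 stretches of 7 neighbouring named genes above the floor on a chromosome, the highest median was 0.86, from AT3G02760 to AT3G02890. The next region's was 0.51, from AT1G61690 to AT1G61820. The lowest was -0.58, from AT5G05210 to AT5G05350, where 5 of 7 genes were below 0. It includes CHIL (-0.63), a chalcone isomerase-like protein of flavonoid synthesis, with 281 on duf761-1 and 434 on NO. In the comparison of OE6 with Col-0 the extremes were 0.42 and -0.53. Under the other scalings and floors the median of the 6 genes was between 0.76 and 0.98. The labels do not place the mutation on the genome, so its distance from this run was not analysed here.

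**Figure D3:**
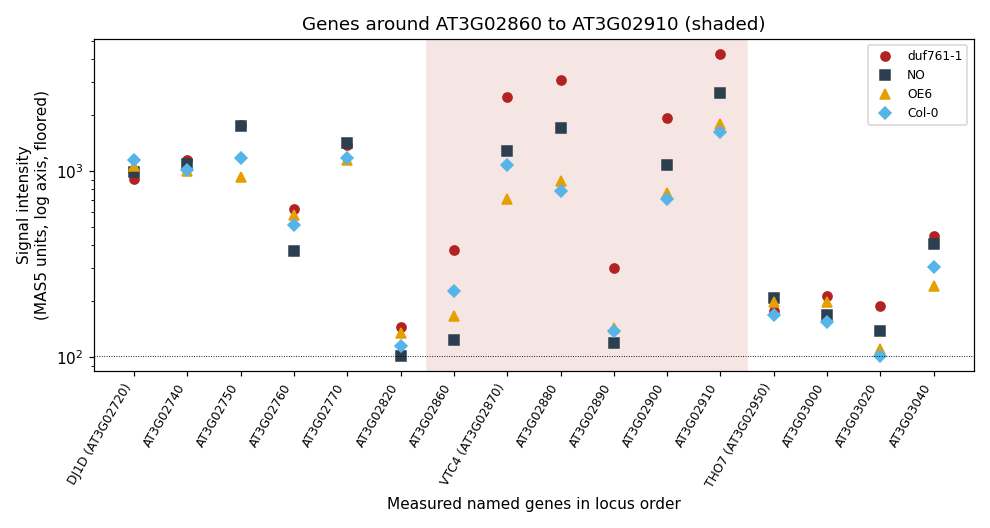
Signal intensity (log axis, values under 102 drawn at 102, dotted line) on the 4 arrays for 16 named genes of chromosome 3 in locus order, without spacing to scale. Within the shaded run from AT3G02860 to AT3G02910, duf761-1 (red circles) is the top symbol for each gene. Outside it the Nossen arrays lie closer together for most genes.

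Members were spread over the chromosomes. Of the named genes above the floor, 0.643% were members over all 5 chromosomes, 0.880% on chromosome 1 (17 of 1931, 11 higher), 0.373% on chromosome 2, 0.537% on chromosome 3, 0.743% on chromosome 4 and 0.573% on chromosome 5. AT3G05900 (1.00) and AT3G05990 (-1.20) have 3 measured genes between them and differ in direction, as do AT1G64360 (at least 1.37) and AT1G64450 (-1.11), also with 3 between. XTH18 and XTH19 were the only members next to each other. Their sequences are alike, so either probe set may also read the other gene, and they are uncertain as independent values.

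For the 3 lower members with a symbol, NO was the highest of the 4 arrays. XTH19 read 997 on duf761-1 and 2354 on NO, with 504 on OE6 and 659 on Col-0, 2.36-fold lower on duf761-1. XTH18 read 194 on duf761-1 and 392 on NO, with 224 on OE6 and 186 on Col-0, 2.03-fold lower on duf761-1. GH3.3 read 138 on duf761-1 and 317 on NO, with 147 on OE6 and 107 on Col-0, 2.29-fold lower on duf761-1. On duf761-1, XTH18 and GH3.3 were within 0.14 of the Columbia mean on the log2 scale, and NO was above it by 0.94 for XTH18 and 1.33 for GH3.3. With the floor at the 60th percentile or used as a pseudocount, GH3.3 and XTH18 were within 2-fold, and XTH18 was also within it after spike-in scaling or quantile normalization.

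The same arrangement held for AT5G19890, with 282 on duf761-1 and 661 on NO, and 122 on OE6 and 290.0 on Col-0 (-1.23). It held for AT3G54580, with 118 on duf761-1 and 280 on NO, and 131 on OE6 and 107 on Col-0 (-1.24). AT2G39500 (-1.03), AT4G25790 (-1.04) and AT3G44970 (-1.07 or lower) completed the named genes high on NO alone. Both unnamed probe sets that were furthest below were of this kind too. The probe set 250152_at read 207 on duf761-1 and 712 on NO, with 84.9 on OE6 and 108 on Col-0 (3.44-fold lower on duf761-1), and 253767_at read 156 on duf761-1 and 515 on NO, with 42.4 on OE6 and 51.9 on Col-0 (3.31-fold lower on duf761-1).

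In a second set of lower members duf761-1 alone lay outside the range of the other arrays, below it. AT1G33790 read 100.4 on duf761-1 and 257 on NO, with 276 on OE6 and 198 on Col-0, at least 2.52-fold lower on duf761-1. AT1G49570 read 48.2 on duf761-1 and 214 on NO, with 170 on OE6 and 248 on Col-0 (-1.07 or lower). AT1G25320 read 102 on duf761-1 and 206 on NO, with 377 on OE6 and 436 on Col-0, and AT1G19370 read 113 on duf761-1 and 242 on NO, with 319 on OE6 and 331 on Col-0 (-1.10). AT5G50335 was the brightest of them, with 490.3 on duf761-1 and 1011 on NO, and 839 on OE6 and 1124 on Col-0 (-1.04). In these 8 probe sets, 5 of them named, the median distance from the Columbia mean was -1.36 on duf761-1 and -0.18 on NO. Between the sets were AT3G05990 (193 on duf761-1, 442 on NO, 369 on OE6 and 408 on Col-0), AT4G35720 (-1.22), AT1G52770 (-1.13) and AT1G64450 (-1.11), with duf761-1 lowest and NO highest.

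Gene lists gave few members. By locus, 45 of the 223 listed genes had a named probe set. Of 40 lists, 16 had at least 3 probe sets above the floor and 15 had none. Most of the 15, among them cell division and MYB transcription factors, have no named probe set here, so they were not measured. Members occurred in 4 of the 16 lists, namely the NET genes, cell wall loosening, XTH genes and auxin response. Over all nuclear probe sets above the floor, 0.378% were higher and 0.24% lower. The lists were chosen with earlier results of these data known, so their counts are a description and no enrichment is read from them. Of 6 measured cell wall loosening genes 2 were lower and 0 higher (median -0.55), of 6 XTH genes 2 were lower and 0 higher (-0.49), and of 3 auxin response genes 1 was lower and 0 higher (-0.51). The cell wall and XTH lists share their members XTH18 and XTH19. Within 2-fold on these lists, XTH26 had a ratio of -0.57 or lower, XTH32 had -0.42 and XTH16 had 0.45.

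The remaining 12 lists held 0 members in either direction. Expansins, which loosen cell walls, had a median of -0.17 over 13 genes, with EXPA18 at -0.74, EXPA8 at -0.70 and EXPA16 at 0.54. Cytochromes P450 had -0.18 over 12 genes, with CYP84A4 at -0.80 (128 on duf761-1 and 222 on NO), and UDP-glycosyltransferases, which attach sugars to small molecules, had -0.14 over 27, with UGT72B3 at -0.64 and UGT73B1 at 0.64. Glutathione S-transferases had 0.05 over 9, the furthest being GSTU20 at 0.60 (2005 on duf761-1 and 1323 on NO). Beta-glucosidases spread most, with BGLU46 at 0.82, BGLU45 at 0.68, BGLU44 at -0.71 and BGLU19 at -0.94 or lower, around a median of -0.04 over 11 genes. Oxidative stress genes had a median of 0.48 over 3 genes, and GSTU25 was the furthest, at 0.57. Of the WRKY transcription factors WRKY6 was at 0.73 (334 on duf761-1 and 202 on NO), while the other 3 measured ones lay between -0.30 and -0.26. Sugar transporters of the SWEET family had a median of -0.10 over 6, with SWEET13 at -0.55 or lower and SWEET1 at -0.37. Subtilases had 0.00 over 5, with ATSBT5.2 at -0.77, and calmodulin-like genes 0.14 over 4, with CML41 at 0.28. Root markers had a median of -0.04 over 3, which is PYK10 itself, with EXPA18 at -0.74 and EXPA7 at 0.51 or higher. Photosynthesis genes of the nucleus, among them LHCB4.1 (-0.06) and SBPASE (-0.08), had -0.06 over 3.

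**Figure D4:**
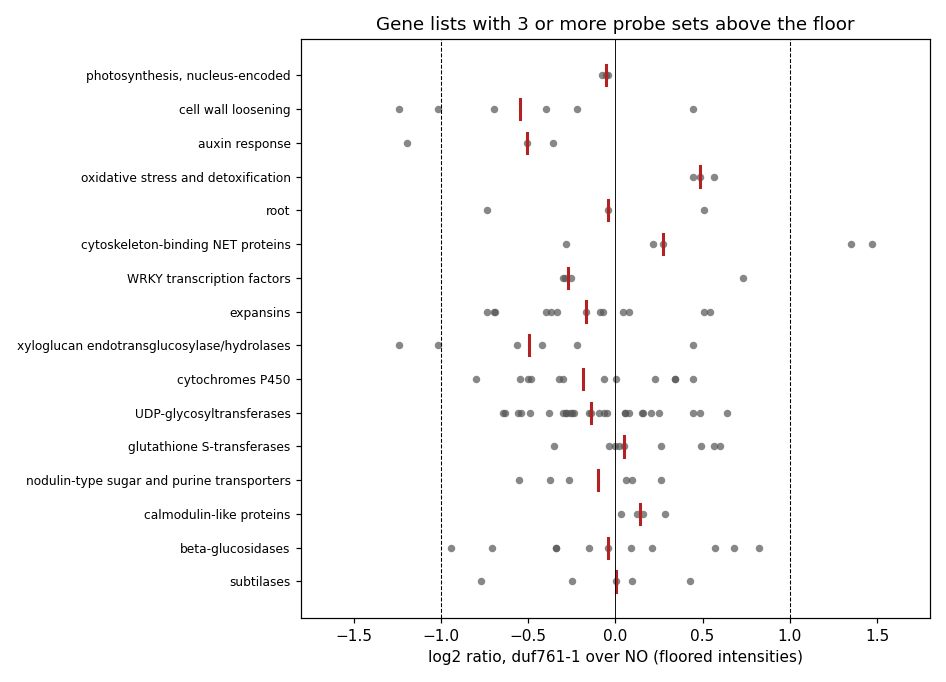
Log2 ratio of duf761-1 over NO for each measured gene (grey dots) of the 16 lists with 3 or more probe sets above the floor, with each list's median (red bar) and dashed lines at 2-fold. NET1B at 1.47 and NET1D at 1.35 or higher lie beyond the line on the right and XTH19, XTH18 and GH3.3 beyond it on the left; other genes lie between the lines.

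The 85 members were then read on the Columbia pair, which shares no array with the Nossen pair. OE6 carries more DUF761-1 by its label. Above the floor on that pair were 14349 nuclear probe sets. Past 2-fold on OE6 relative to Col-0 were 76 higher (0.53%) and 73 lower ones (0.509%). Of the 52 probe sets higher on duf761-1, 0 were 2-fold higher and 1 was 2-fold lower on OE6, and 4 were under the floor on both. The 1 was AT1G64360, with 106 on OE6 and 238 on Col-0 (-1.17). Of the 33 lower on duf761-1, 2 were higher and 1 lower on OE6, and 3 were under the floor on both. The lower one was AT5G19890, 122 on OE6 and 290.0 on Col-0 (-1.25), in the same direction as on duf761-1. The higher ones are both unnamed and were singled out after their values were seen. The probe set 253957_at read 91.3 on duf761-1 and 204 on NO, and 275 on OE6 and 101 on Col-0 (at least 1.43 for OE6 over Col-0). The probe set 261768_at read 487 on duf761-1 and 991 on NO, and 506 on OE6 and 246 on Col-0 (1.04 for OE6 over Col-0). For 261768_at the NO array was again the high one, and duf761-1 and OE6 read alike.

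**Figure D5:**
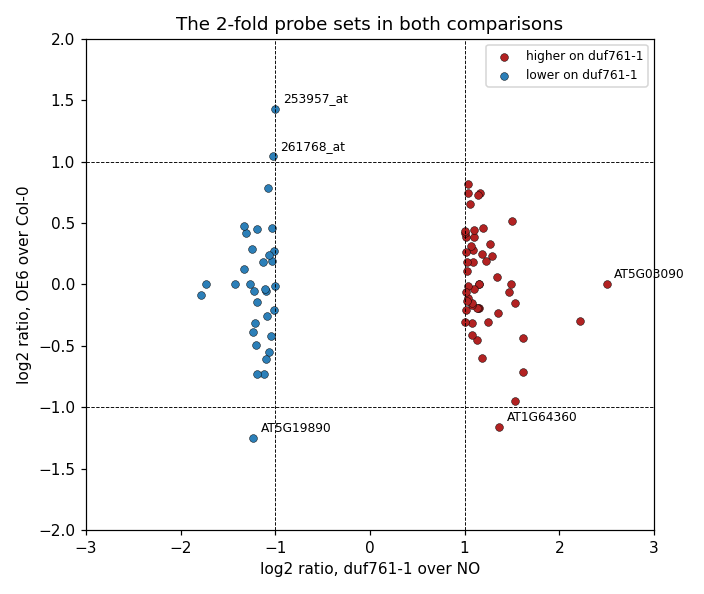
Log2 ratio of OE6 over Col-0 (vertical) against that of duf761-1 over NO (horizontal) for the 85 members, with dashed lines at 2-fold. Only the 4 labelled points beyond a horizontal line, AT1G64360, AT5G19890, 253957_at and 261768_at, were 2-fold apart on the Columbia pair; AT5G03090, furthest right, was under the floor on both Columbia arrays.

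Neither the labels nor the gene tables say which locus DUF761-1 is, so the mutant label was not checked against the transcript of its own gene. The locus AT4G16790, brightest on OE6 relative to Col-0 and chosen after its values were seen, read 24.3 on duf761-1 and 118 on NO, against 5171 on OE6 and 91.1 on Col-0. As NO was barely above the floor, its ratio on the Nossen pair is only bounded, at -0.21 or lower, and no gene was assigned to DUF761-1 from it.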

How the data were processed

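Each array was summarised to 1 signal intensity per probe set. Per the submitters' processing notes the authors used MAS5, whose version is not given in the sources used here. The deposited intensities are on a linear scale, and each array has a mean near 500.0 after trimming 2% of probe sets at each end, so a difference in total mRNA is hidden. Labelled target was made from 6 µg of total RNA.

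From these values the floor of 102 was set, log2 ratios were taken with Python 3.11.15 (numpy 2.4.6, pandas 2.3.3, statsmodels 0.14.6), and probe sets at least 2-fold apart were counted. There were no replicates, so no test or error could be computed, and precision is limited by the small number of arrays. Gene names came from the platform annotation of the array, updated through a reference table of assembly TAIR10.1, where 13373 of 13421 were found. That table served for names and gene order only.

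The members and the gene lists were chosen with earlier results of these data known. Named genes were the 15 highest and 15 lowest named probe sets, all members with a symbol or on a list, up to 2 per list with the furthest ratios, the 2 highest and 2 lowest unnamed probe sets, and those nearest the threshold. Any other gene completes a group of members or is said to have been chosen after seeing its values. List genes had to be above the floor on duf761-1 or NO to be measured. Symbols of cyclophilins were left out of the cytochrome P450 list. Alternatives were median, quantile, loess (span 0.4) and spike-in scaling, no floor, a floor at the 25th or the 60th percentile, the floor as a pseudocount, a 3-fold threshold, and other choices of probe sets. Promoter motifs were not analysed here.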

Additional observations from a re-analysis of the deposited data

How the results depend on the processing

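No paired analysis was possible because each genotype has 1 array. The counts depend on the floor and the threshold. Against 52 higher and 33 lower probe sets, a floor at the 25th percentile gave 172 higher and 241 lower, one at the 60th gave 12 and 7, no floor gave 1621 and 2497, the pseudocount gave 17 and 6, the 3-fold threshold gave 4 and 2, and probe sets with 1 gene name gave 30 and 17. Spike-in scaling gave 21 lower. Median, quantile and loess scaling gave between 41 and 59 higher and between 30 and 36 lower. The share of higher probe sets with duf761-1 above the other 3 arrays (63.5%) was 44.3% with spike-in scaling, 83.3% at the 60th-percentile floor and 47.3% with no floor. That with NO below the others (75%) was 33.3% at the 60th-percentile floor and 50% at 3-fold. The share of lower probe sets with duf761-1 below the others (54.5%) was 72.8% with no floor, 33.3% with the pseudocount and 0% at 3-fold, and that with NO above them (72.7%) was 53.5% with no floor and 100% at 3-fold. Of the higher probe sets, 1 was also 2-fold apart on OE6, which became 3 with spike-in scaling, 9 at the 25th and 0 at the 60th-percentile floor, 700 with no floor, and 0 with the pseudocount or at 3-fold. Of the lower ones it was 3, which became 1 with spike-in scaling or 1 gene name, 17 at the 25th and 0 at the 60th-percentile floor, 1063 with no floor, and 0 with the pseudocount or at 3-fold. The cause was not tested, beyond the floor and the threshold setting which probe sets can be counted. Over the 8 other scalings and floors, 7 of the 52 and 3 of the 33 stayed past 2-fold in each. Among them were AT5G03090, 252325_at, AT1G47970, AT5G18150, XTH19 and 250152_at. Of the members 0 changed sign, but a floor or a pseudocount cannot reverse a ratio. The scalings shifted ratios little, for example that of AT5G03090 from 2.50 to between 2.41 and 2.56. The absence of sign changes is therefore no check. The median log2 ratio of the 6 chromosome 3 genes stayed between 0.76 and 0.98 under alternatives chosen after seeing the data.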
